A study of Mus musculus with 6 samples.

Results

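The transcripts of the insulin-like growth factor (IGF) system were examined in the inguinal white fat of mice bred to lose Igf1r, the gene of the IGF1 receptor, from their adipocytes, and of floxed littermates. The 8 genes taken were both ligands (Igf1 and Igf2), the Igf2 receptor Igf2r and 5 binding proteins (Igfbp3 to Igfbp7). They were chosen by symbol and are 8 of the 14861 genes in the authors' table. AdIGF1RKO mice came from a cross of a floxed Igf1r strain (B6;129-Igf1rtm2Arge/J) with a strain that expresses Cre recombinase from the adiponectin promoter (B6; FVB-Tg (Adipoq-Cre)1Evdr/J), per the labels' protocols. Flox mice were littermates with the floxed allele, which both groups therefore carry, and the labels do not give their Cre status. Both groups ate a diet with 10% of its calories from fat (NCD, D12450J) for 24 weeks and had an overnight fast before collection, so no high-fat diet enters this comparison. Each group had 3 libraries. The labels give neither the sex nor the age of the animals, and they name no pooling, so p-values measure the spread between these 6 libraries.

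IGF1 and IGF2 are small secreted relatives of insulin that act through the IGF1 receptor and, more weakly in the case of IGF1, through the insulin receptor. Most of the IGF outside cells is held by binding proteins, which carry it, keep it from the receptor or bring it to the cell surface, and proteases free it again by cutting them. Fat tissue makes Igf1 under growth hormone, and both adipocytes and the stromal cells between them secrete binding proteins. The Cre used here acts in adipocytes, while endothelial cells, fibroblasts and macrophages of the pad keep a functional receptor gene. In a bulk sample such as this, fewer cells of a type and less RNA per cell cannot be told apart.

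Promoters of both ligands and of Igfbp4 are shown. The reason is that growth hormone acts on Igf1 through STAT5 factors, and the genes of that pathway are read out below. Igfbp4 was the binding protein gene with the highest mean over all 6 libraries in reads not divided by gene length (Igfbp7 was higher in 3 of them). Per kilobase of exon, Igfbp7 and Igfbp6 were higher than Igfbp4 in each of the 6 libraries. The windows are the 250 bases before the annotated RefSeq start, 5′ to 3′ on the gene's own strand, in build GRCm38.p6. Igf1 lies at chr10:87860861-87861110 on the plus strand, Igf2 at chr7:142657497-142657746 on the minus strand and Igfbp4 at chr11:99040994-99041243 on the plus strand. Igf2 has 4 windows in the RefSeq table, and the one farthest downstream is printed. Its reads are summed over all starts, so its level cannot be divided among them.
Igf1: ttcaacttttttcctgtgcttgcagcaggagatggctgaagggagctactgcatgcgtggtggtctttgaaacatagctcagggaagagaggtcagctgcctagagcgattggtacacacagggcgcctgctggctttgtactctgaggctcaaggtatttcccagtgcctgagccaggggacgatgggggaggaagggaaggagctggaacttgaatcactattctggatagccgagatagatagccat
Igf2: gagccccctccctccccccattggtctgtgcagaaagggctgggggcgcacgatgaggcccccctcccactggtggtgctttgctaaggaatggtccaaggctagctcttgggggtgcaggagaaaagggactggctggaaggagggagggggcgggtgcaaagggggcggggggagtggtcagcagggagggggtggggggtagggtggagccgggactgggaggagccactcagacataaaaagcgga
Igfbp4: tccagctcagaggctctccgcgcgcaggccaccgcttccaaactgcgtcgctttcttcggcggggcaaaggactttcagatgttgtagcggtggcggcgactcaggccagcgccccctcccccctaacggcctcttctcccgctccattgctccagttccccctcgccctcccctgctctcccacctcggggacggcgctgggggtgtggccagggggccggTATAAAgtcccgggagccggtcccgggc
Capitals mark TATAAA, the core of a TATA box, which in Igfbp4 begins 28 bases before the start. All 8 genes had windows in the RefSeq table, 11 in all, reaching from 250 bases before to 50 after a start. TATAAA was found on either strand in 2 of the 11, those of Igfbp4 and Igfbp6, and in 13.6% of all 32851 windows. TTCNNNGAA, the core motif of STAT5, reads alike on both strands and was found in 0 of the 11 windows and in 8.30% of all. A missing match says only that these letters are not in this window.

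Between 60617147 and 70695527 reads per library fell on the genes of the table. Levels are given as scaled CPM, the reads of a gene per 1000000 reads of a library of average size after median-ratio scaling. All 16 adipocyte markers were present, summing to 50811 to 56770 scaled CPM in AdIGF1RKO and 53857 to 67723 in Flox. Libraries differed in skeletal muscle RNA: 19 of 20 muscle markers were present, and they took 0.0564%, 0.297% and 4.92% of the reads in AdIGF1RKO 1, 2 and 3, and 0.949%, 0.111% and 13.6% in Flox 1, 2 and 3. The floxed gene itself, Igf1r, had 6.11, 5.27 and 4.85 scaled CPM in AdIGF1RKO 1, 2 and 3, and 6.44, 6.47 and 5.86 in Flox 1, 2 and 3. It averaged 5.41 ± 0.639 scaled CPM in AdIGF1RKO and 6.26 ± 0.343 in Flox (SD, n = 3 each), and the groups overlapped. Its log2 difference of -0.18 (standard error 0.12) was short of the limma threshold (adjusted p = 0.998). The labels do not say which exons are removed, and the table gives a single value for the whole gene.

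None of the 8 genes passed the test between AdIGF1RKO and Flox fat. For all 8 the AdIGF1RKO and Flox values overlapped, against 8.27% of the 12993 tested genes whose groups did not overlap (4.41% higher and 3.86% lower in AdIGF1RKO). At an adjusted p under 0.05, limma called 0 of the 8 and 0 of 12993 genes (0%). At an unadjusted p under 0.05 it had 0 of the 8, where 2.96% of all tested genes had one (1.83% higher and 1.13% lower in AdIGF1RKO). edgeR and DESeq2 on the recovered reads also called 0 of the 8. Over all genes edgeR called 0 (0%), with 2.91% at an unadjusted p under 0.05, and DESeq2 called 23 (0.177%), with 3.8%. Of the 8 log2 differences 3 were positive and 5 negative, with a median of -0.11, while 44.8% of all tested genes were positive and their median was -0.02.

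**Figure D1:**
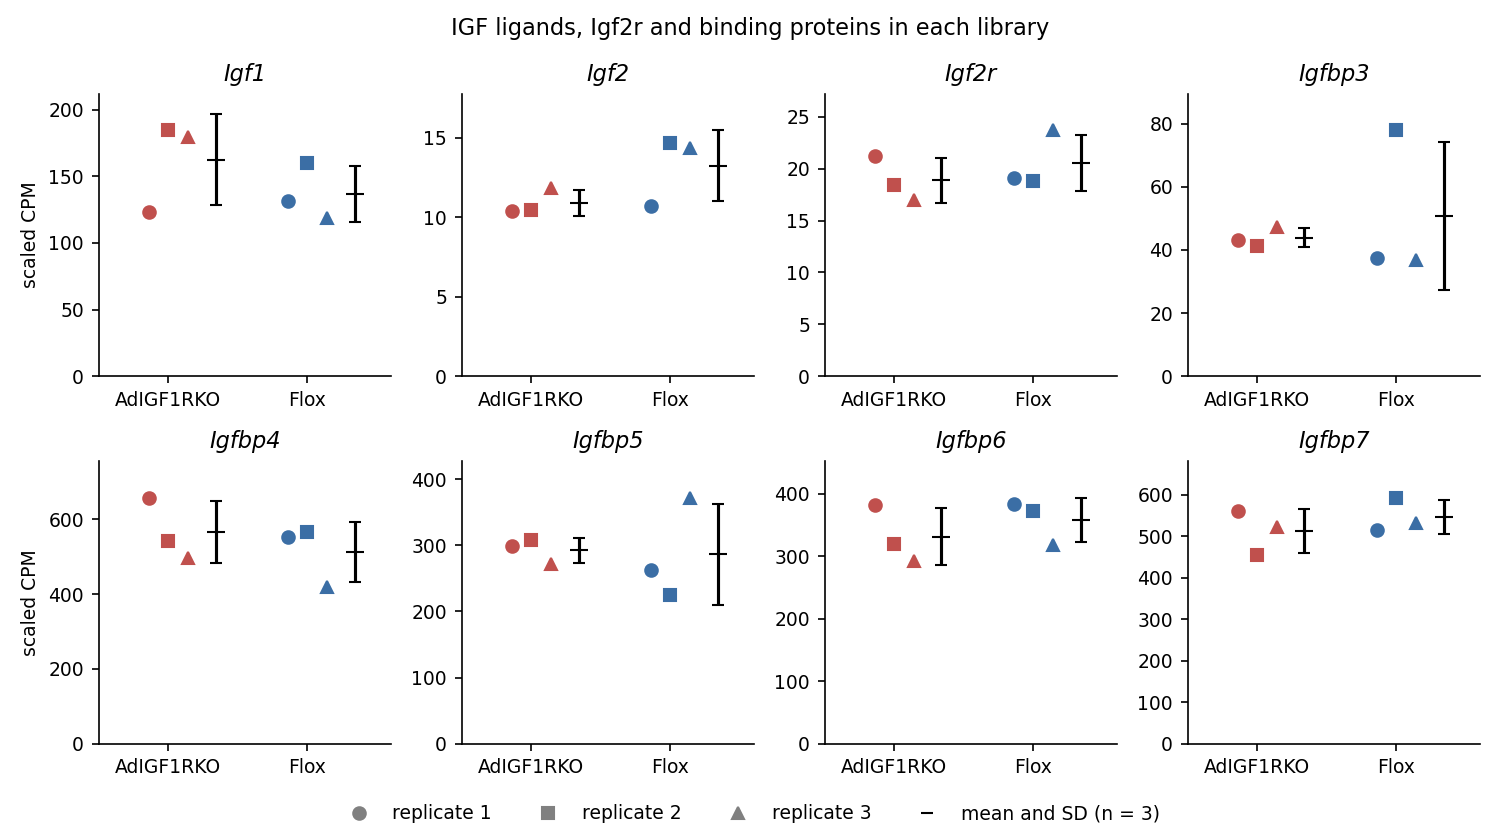
Level of each gene in scaled CPM (vertical axis, from 0) in the 3 AdIGF1RKO libraries (red, left) and the 3 Flox libraries (blue, right). Marker shapes give the replicate number, and black bars give the mean and SD of each group. The groups overlap in every panel. Igfbp3 has a single high library, Flox 2 at 77.9, and Igfbp5 is highest in Flox 3 at 372.

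Igf1, the growth hormone-dependent ligand, had 123, 184 and 179 scaled CPM in AdIGF1RKO 1, 2 and 3, and 131, 160 and 119 in Flox 1, 2 and 3. AdIGF1RKO 2 and AdIGF1RKO 3 lay above every Flox library, and AdIGF1RKO 1 lay below 2 of them. The group means were 162 ± 34.2 in AdIGF1RKO and 137 ± 21.2 in Flox (SD, n = 3 each), a ratio of means of 1.19. The log2 difference was 0.23 ± 0.19 (SE), short of the limma threshold (unadjusted p = 0.267, adjusted p = 0.998). The 95% interval reached from 0.853-fold to 1.62-fold. Leaving out 1 library gave log2 differences of 0.13 (without AdIGF1RKO 2) to 0.42 (without AdIGF1RKO 1). The latter had an unadjusted p of 0.0345 by limma and did not pass adjustment. Without both AdIGF1RKO 3 and Flox 3, the libraries with most muscle RNA, the log2 difference was 0.05. Macrophages and fibroblasts are known to make Igf1. The 16 macrophage markers, all present, summed to 2360 to 3955 scaled CPM in AdIGF1RKO and 2059 to 3224 in Flox, and the 18 fibroblast and progenitor markers to 6812 to 8455 and 6976 to 8673. The macrophage sum was highest in AdIGF1RKO 2, which had most Igf1, and was 2360 in AdIGF1RKO 3, which had almost as much Igf1, below all others but Flox 3 at 2059. The part of these cells in the Igf1 level was not tested.

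Igf2, the fetal growth factor transcribed from the paternal allele in mice, had 10.4, 10.5 and 11.8 scaled CPM in the AdIGF1RKO libraries and 10.7, 14.7 and 14.4 in the Flox libraries. The AdIGF1RKO values lay close together, and Flox 1 fell among them while the other two Flox libraries lay above. The means were 10.9 ± 0.801 in AdIGF1RKO and 13.2 ± 2.22 in Flox. With a log2 difference of -0.25 ± 0.15 (SE) it had the smallest unadjusted p of the 8 genes (0.133 by limma, adjusted p = 0.998), rank 1207 of the 12993 tested genes. The interval reached from 0.659-fold to 1.07-fold, and each value rests on 693 to 1031 reads. The log2 difference was -0.39 without Flox 1 (unadjusted p = 0.0246 by limma, which did not pass adjustment) and -0.17 without Flox 2. Under scaling to equal sums it was -0.14, where the median of all genes was 0.09. With array quality weights it was -0.082.

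The ratio of both ligands within a library does not depend on how libraries are scaled. Per Igf2 read there were 11.8, 17.6 and 15.2 Igf1 reads in AdIGF1RKO 1, 2 and 3, and 12.3, 10.9 and 8.27 in Flox 1, 2 and 3. AdIGF1RKO 1 lay within the Flox range and the other two lay above it. The mean ratio was 14.9 ± 2.90 in AdIGF1RKO and 10.5 ± 2.03 in Flox (SD, n = 3 each), and the log2 difference was 0.50 ± 0.24 (SE). An exact two-sided permutation test gave p = 0.2, where 3 against 3 allows no p below 0.1. Without both muscle-rich libraries the log2 difference was 0.32. Per kilobase of exon Igf1 was 7.88 ± 1.54 times as abundant as Igf2 in AdIGF1RKO and 5.56 ± 1.08 times in Flox, with exon lengths from GENCODE release M21.

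Igf2r, the receptor that carries IGF2 and mannose 6-phosphate-tagged enzymes to lysosomes, had 21.2, 18.4 and 17.0 scaled CPM in AdIGF1RKO and 19.1, 18.8 and 23.7 in Flox. The highest value was in Flox 3, the library with most muscle RNA. The log2 difference was -0.11 ± 0.13 (SE) (adjusted p = 0.998 by limma). The 95% interval reached from 0.738-fold to 1.16-fold. The log2 difference was -0.010 without Flox 3 and 0.06 without both muscle-rich libraries. Under scaling to equal sums it was 0.0036, where the median of all genes was 0.09.

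Among the binding proteins, Igfbp3, the main partner of IGF1 in blood, was the most variable. It had 43.1, 41.3 and 47.3 scaled CPM in AdIGF1RKO and 37.6, 77.9 and 36.9 in Flox. The AdIGF1RKO libraries were alike, while Flox 2 stood far above the other two Flox libraries. The means were 43.9 ± 3.07 in AdIGF1RKO and 50.8 ± 23.5 in Flox, and the log2 difference was -0.12 ± 0.29 (SE) (adjusted p = 0.998 by limma). The 95% interval reached from 0.570-fold to 1.49-fold. Without Flox 2 all 3 AdIGF1RKO libraries lay above both Flox libraries left. That separation depends on leaving out the highest library, and its share over all genes is not given. The log2 difference became 0.23, short of the threshold (unadjusted p = 0.0856 by limma). Flox 2 also had the largest sum of adipocyte markers, 67723 scaled CPM, and of fibroblast and progenitor markers, 8673. The part of these cells in its Igfbp3 level was not tested. Over the 6 libraries Igfbp3 had an SD of 0.39 on the log2 scale, larger than that of 88.1% of tested genes.

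Igfbp5, a binding protein that sticks to extracellular matrix, had 299, 308 and 272 scaled CPM in AdIGF1RKO and 263, 224 and 372 in Flox. Flox 3 was the highest of all 6 and Flox 2 the lowest, with the AdIGF1RKO values between. The means were 293 ± 19.01 in AdIGF1RKO and 286 ± 76.4 in Flox, and the log2 difference was 0.06 ± 0.19 (SE) (adjusted p = 0.998 by limma), with a 95% interval from 0.762-fold to 1.43-fold. Flox 3 was also the library with 13.6% of reads from muscle markers, while AdIGF1RKO 3, with 4.92%, had the lowest Igfbp5 level of its group. Without Flox 3 the log2 difference was 0.27 (unadjusted p = 0.0480), without both muscle-rich libraries it was 0.32 (unadjusted p = 0.0388), and without Flox 2 it was -0.09. None of these passed adjustment.

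Igfbp4, which holds IGF away from its receptor until a protease cuts it, had 657, 543 and 497 scaled CPM in AdIGF1RKO and 553, 566 and 420 in Flox. In both groups the lowest value was in the muscle-rich library. The log2 difference was 0.14 ± 0.16 (SE), with a 95% interval from 0.843-fold to 1.45-fold. It was 0.0093 without Flox 3 and 0.23 without AdIGF1RKO 3. Igfbp6, which prefers IGF2 over IGF1, had 382, 320 and 293 scaled CPM in AdIGF1RKO and 384, 373 and 318 in Flox, again lowest in both libraries numbered 3. Its log2 difference was -0.11 ± 0.13 (SE), with a 95% interval from 0.739-fold to 1.154-fold. It was -0.030 without AdIGF1RKO 3 and -0.22 without AdIGF1RKO 1. Igfbp7, a relative with low affinity for IGF that is abundant in vessel walls, had 560, 455 and 522 scaled CPM in AdIGF1RKO and 516, 592 and 531 in Flox. Its log2 difference was -0.10 ± 0.11 (SE), and its 95% interval, from 0.774-fold to 1.13-fold, was the narrowest of the 8. It was -0.015 without AdIGF1RKO 2 and -0.16 without AdIGF1RKO 1. For these 3 genes limma gave an adjusted p = 0.998 each. Endothelial markers, 20 of 20 present, summed to 1096 to 1323 scaled CPM in AdIGF1RKO and 922 to 1171 in Flox. Of the 19 tested, 6 were higher in AdIGF1RKO without overlap, against 4.41% of all tested genes, and their part in the Igfbp7 level was not tested.

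**Figure D2:**
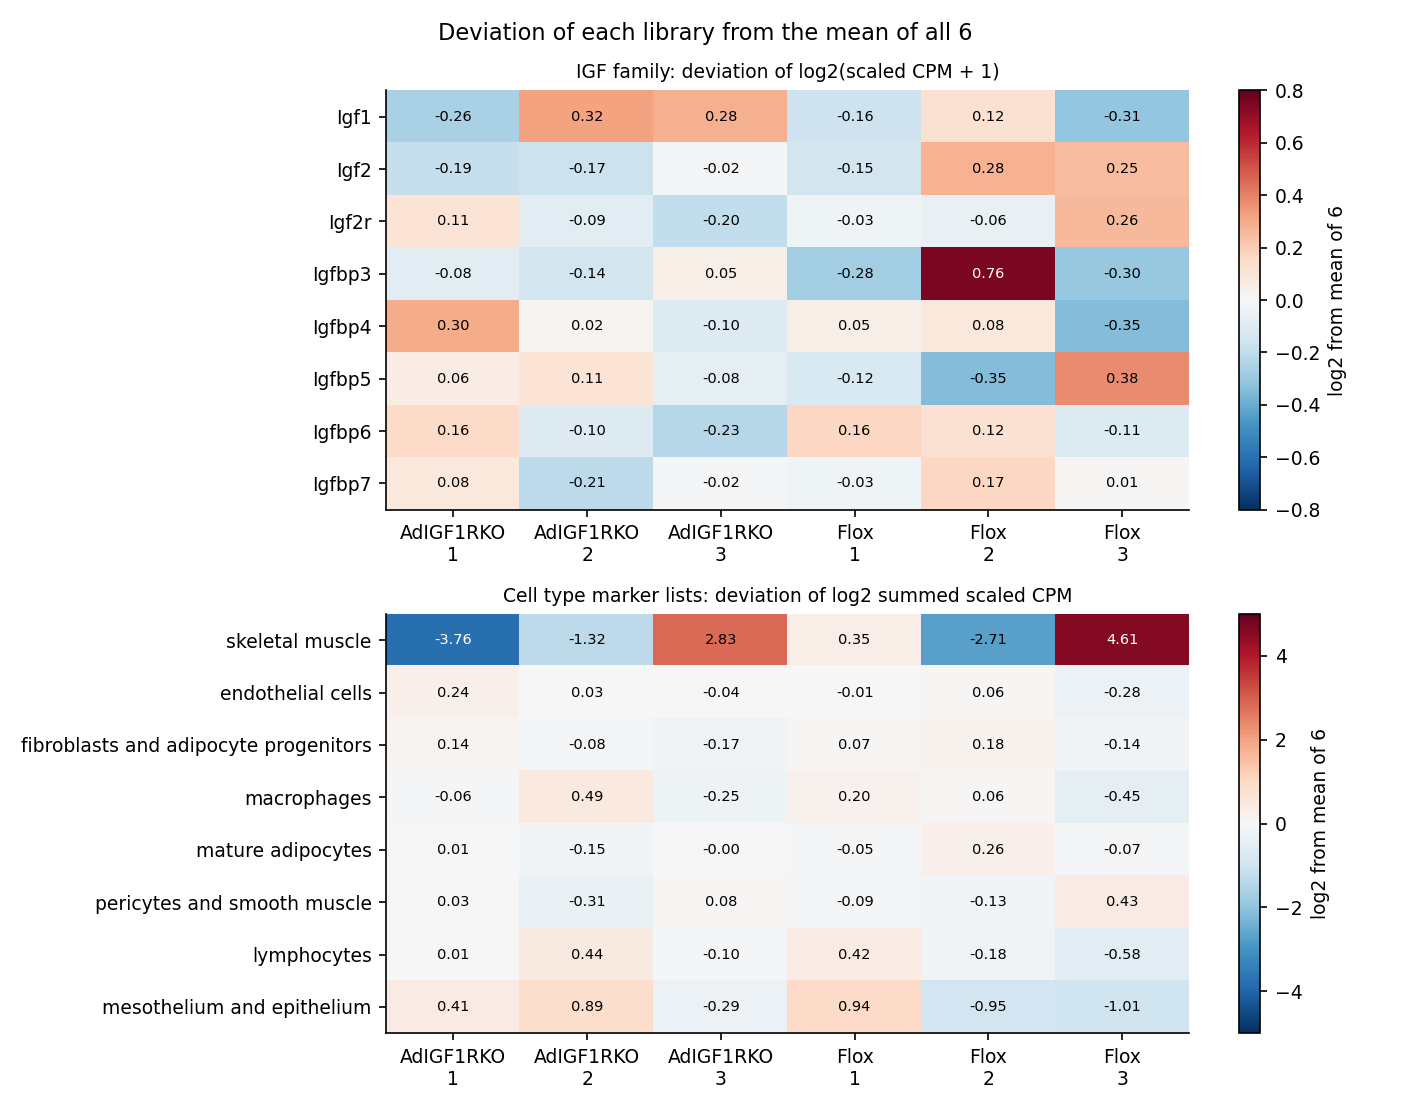
Deviation of each library (columns) from the mean of all 6, on a log2 scale, for the 8 genes (upper panel) and for the summed level of 8 lists of cell type markers (lower panel, with its own colour scale). Skeletal muscle markers span from -3.76 in AdIGF1RKO 1 to 4.61 in Flox 3, while no IGF family gene deviates by more than the 0.76 of Igfbp3 in Flox 2.

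Levels can be set against each other between genes per kilobase of exon only. On that scale the order in each of the 6 libraries was Igfbp7, Igfbp6, Igfbp4 and then Igfbp5. Igfbp7 lay at 377 to 463 scaled CPM per kilobase in AdIGF1RKO and 427 to 490 in Flox, and Igfbp6 at 263 to 344 and 286 to 345. Igfbp4 lay at 127 to 167 per kilobase in AdIGF1RKO and 107 to 144 in Flox, and Igfbp5 at 45.2 to 51.3 and 37.4 to 61.9. These 4 did not overlap over the 6 libraries. Igfbp3, at 13.2 to 15.1 in AdIGF1RKO and 11.8 to 24.9 in Flox, and Igf1, at 12.4 to 18.6 and 12.0 to 16.2, came next and exchanged places between libraries. The same held for Igf2, at 1.98 to 2.25 in AdIGF1RKO and 2.04 to 2.80 in Flox, and Igf2r, at 1.91 to 2.39 and 2.12 to 2.67, so neither pair can be ordered.

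The 5 binding proteins together had 1941, 1668 and 1630 scaled CPM in AdIGF1RKO and 1754, 1833 and 1678 in Flox. Of their summed reads per kilobase Igfbp7 made up 45.7% ± 2.89 in AdIGF1RKO and 46.7% ± 2.34 in Flox, and Igfbp6 32.1% ± 1.90 and 33.2% ± 2.16 (SD, n = 3 each). Igfbp4 made up 15.5% ± 0.975 in AdIGF1RKO and 13.4% ± 1.43 in Flox, and Igfbp5 5.28% ± 0.579 and 4.99% ± 1.66. Igfbp3 made up the smallest share, 1.52% ± 0.193 in AdIGF1RKO and 1.65% ± 0.660 in Flox. Each of the 5 shares overlapped between the groups.

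**Figure D3:**
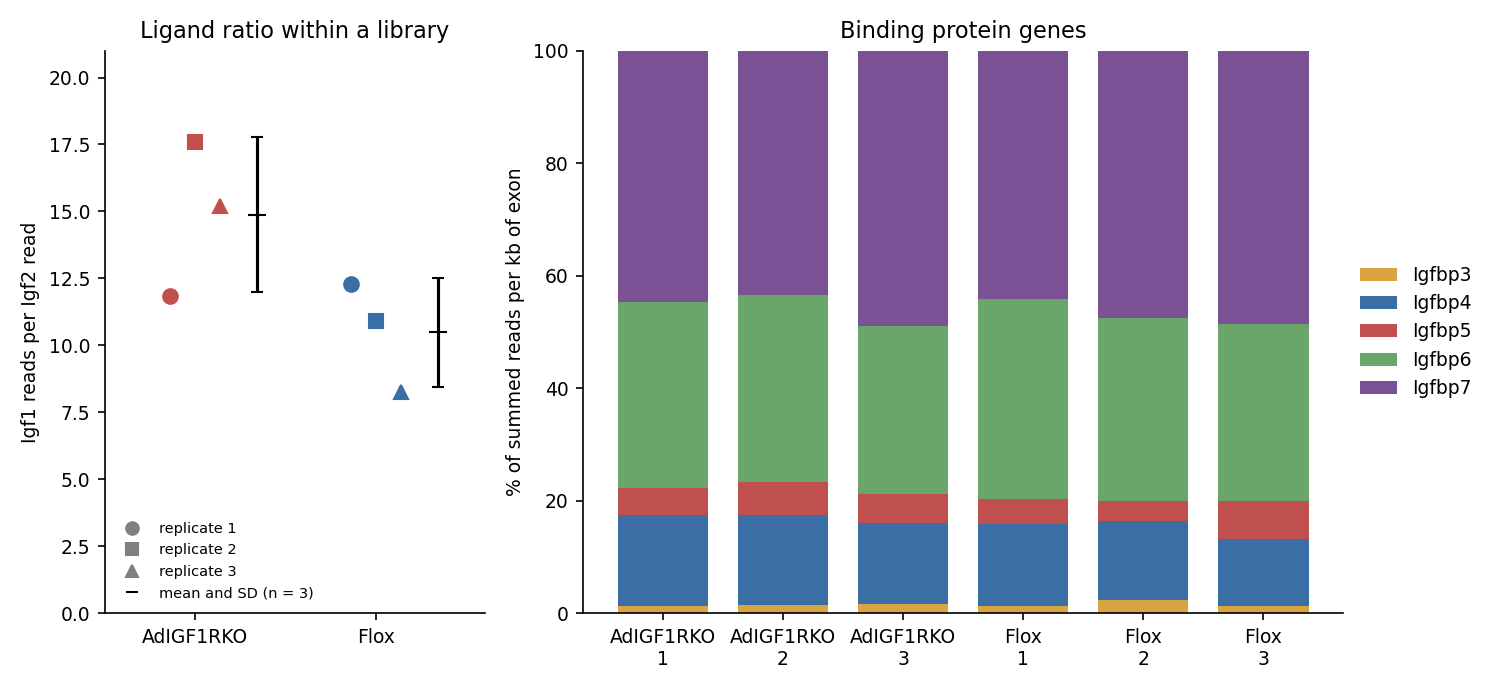
Left, Igf1 reads per Igf2 read in each library (points), with the mean and SD of each group (black). Right, share of each binding protein gene in the summed reads per kilobase of exon, in percent, for each library. AdIGF1RKO 1, at 11.8, lies within the Flox range of 8.27 to 12.3, and the other two AdIGF1RKO libraries lie above it. Igfbp7 and Igfbp6 take the largest shares in each bar.

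Other genes of the IGF system were read out from 4 lists of 48 different genes, 38 of which were tested, and 0 passed the limma test. Of the 38, 21 had positive and 17 negative log2 differences. Groups did not overlap for 4 (10.5%), near the 8.27% of all genes. At an unadjusted p under 0.05 limma had 3 of the 38 (Igfals, Stc2 and Mest), where 2.96% of all tested genes had one. The list of receptors, carriers and proteases had 9 of its 14 genes tested, with 6 positive, 3 negative and a median log2 difference of 0.07. Igfbp1, Igfbp2 and Adam28 were not analysed here. Igfals, whose product joins IGFBP3 and IGF in the large complex that circulates in blood, had 21.4, 31.8 and 31.0 scaled CPM in AdIGF1RKO and 15.6, 20.6 and 20.5 in Flox. The groups did not overlap, with 21.4 the lowest AdIGF1RKO value and 20.6 the highest Flox value. The means were 28.1 ± 5.77 in AdIGF1RKO and 18.9 ± 2.85 in Flox, and the log2 difference of 0.54 (standard error 0.19) did not pass adjustment over all genes (unadjusted p = 0.0266, adjusted p = 0.998 by limma). Stc2, a stanniocalcin that blocks the IGFBP4 protease PAPPA, had 9.03, 11.4 and 10.4 scaled CPM in AdIGF1RKO and 5.83, 9.56 and 5.72 in Flox. AdIGF1RKO 1 lay below Flox 2, and the log2 difference of 0.52 (standard error 0.21) did not pass either (unadjusted p = 0.0431, adjusted p = 0.998). For both Igfals and Stc2 the AdIGF1RKO library was the higher one in each same-numbered pair. With the replicate number as a block limma gave an unadjusted p of 0.00268 for Igfals and 0.0160 for Stc2. Neither passed adjustment there (adjusted p = 0.914 each). Htra1, a protease that cuts IGFBP5, had 202 ± 14.9 scaled CPM in AdIGF1RKO and 187 ± 8.52 in Flox. Pappa itself was close to the lower end of the table in every library, with 0.223 ± 0.0662 scaled CPM in AdIGF1RKO and 0.220 ± 0.0610 in Flox, and was not tested.

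Growth hormone signalling, the main inducer of Igf1, had 7 of 7 genes tested, with 2 positive, 5 negative and a median log2 difference of -0.07. Stat5a had 23.9, 26.6 and 25.3 scaled CPM in AdIGF1RKO and 31.0, 28.1 and 28.8 in Flox, without overlap. Its log2 difference was -0.20 ± 0.09 (SE) (unadjusted p = 0.0627, adjusted p = 0.998 by limma). With the replicate number as a block limma gave Stat5a a higher unadjusted p of 0.113. Socs2, a feedback inhibitor induced by STAT5, averaged 10.1 ± 0.451 scaled CPM in AdIGF1RKO and 12.1 ± 1.93 in Flox, with overlap. Cish, another such inhibitor, averaged 3.35 ± 0.805 in AdIGF1RKO and 2.70 ± 0.683 in Flox. Stat5b had 76.4 scaled CPM in Flox 3 and 27.1 to 40.6 in the other 5 libraries. Its log2 difference was -0.39 with all libraries and 0.03 without Flox 3. In each same-numbered pair the AdIGF1RKO library was the lower one, and with the replicate number as a block limma gave an unadjusted p of 0.0820, against 0.324 without it.

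Proteins that carry an IGFBP domain but do not belong to the family had 10 of 13 genes tested, with 8 positive, 2 negative and a median log2 difference of 0.05. Htra3, a secreted protease, averaged 227 ± 25.2 scaled CPM in AdIGF1RKO and 198 ± 14.3 in Flox, a log2 difference of 0.19 ± 0.11 (SE). Esm1, made by endothelial tip cells, averaged 4.27 ± 1.63 in AdIGF1RKO and 2.96 ± 0.806 in Flox, a log2 difference of 0.39 ± 0.26 (SE) that was 0.15 without AdIGF1RKO 3 and 0.59 without AdIGF1RKO 1. Kazald1 averaged 2.42 ± 0.483 in AdIGF1RKO and 3.06 ± 1.65 in Flox, a log2 difference of -0.18 that was 0.13 without Flox 3. None of these passed the limma test (adjusted p = 0.998 each).

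**Figure D4:**
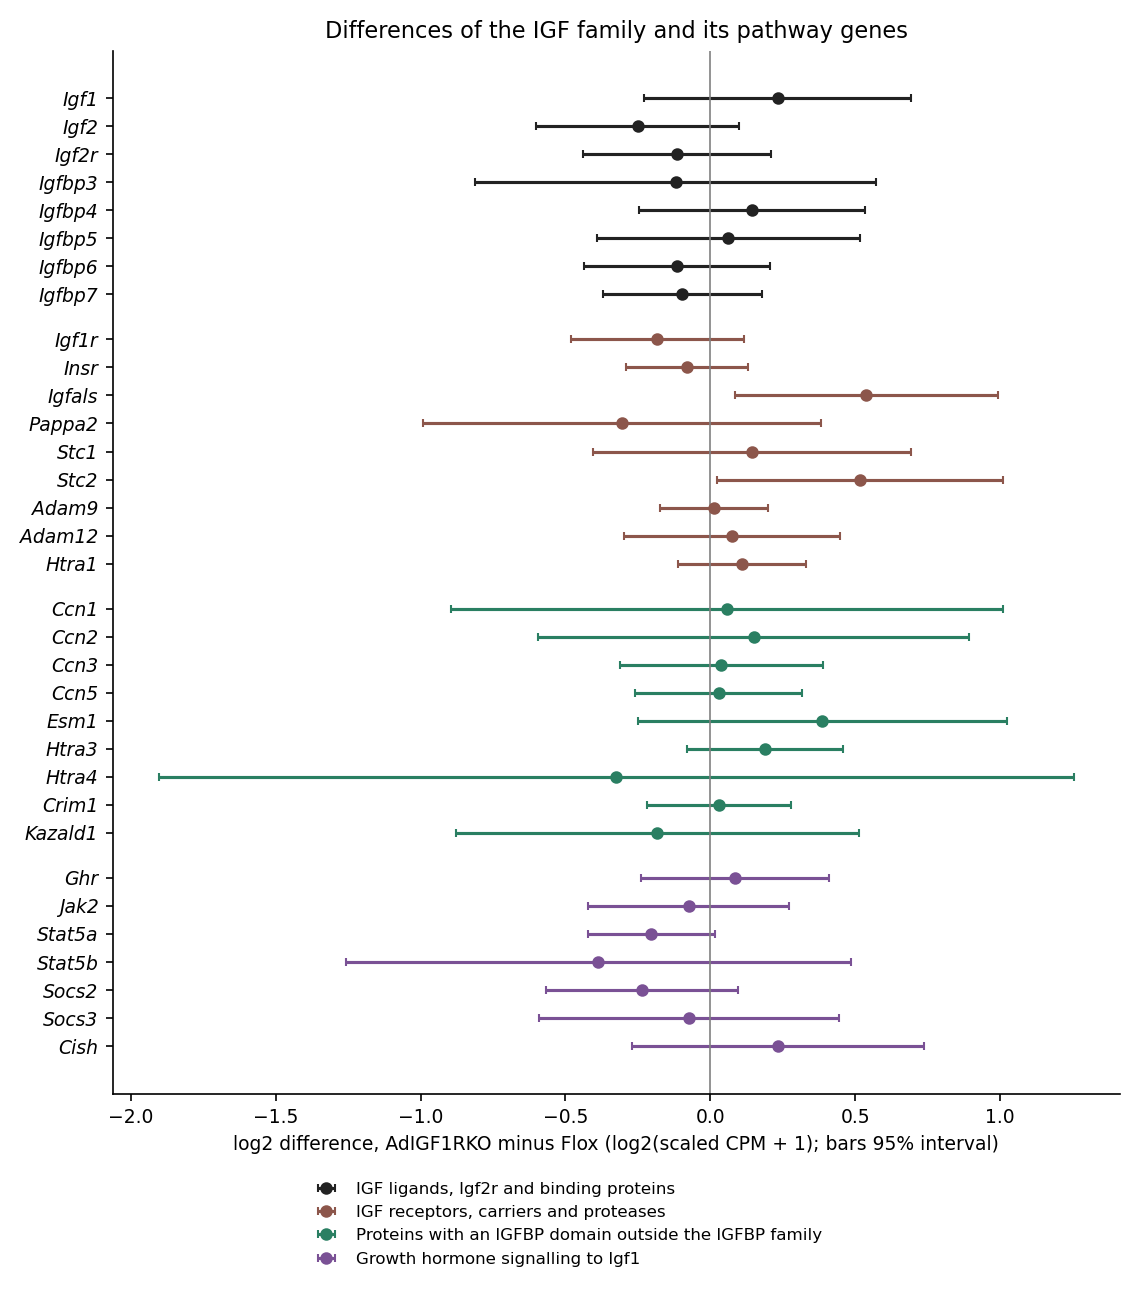
Log2 difference, AdIGF1RKO minus Flox, of log2(scaled CPM + 1) with its 95% interval (horizontal axis) for the 8 genes (black) and for the tested genes of 3 of the 4 pathway lists (coloured; the imprinted genes are left out). The intervals of all 8 include 0. Those of Igfals and Stc2 lie above 0 before adjustment, and neither gene passed adjustment over all genes.

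Imprinted growth genes were read out because Igf2 and Igf2r are imprinted. Of 15 genes 13 were tested, with 6 positive, 7 negative and a median log2 difference of -0.04. Mest, which encodes a protein of the endoplasmic reticulum, had 58.6, 56.4 and 77.3 scaled CPM in AdIGF1RKO and 17.7, 27.8 and 13.6 in Flox. The groups did not overlap. Mest did not pass limma (log2 difference 1.70, standard error 0.26, unadjusted p = 0.00048, adjusted p = 0.998) and was among the 23 genes called by DESeq2 (adjusted p = 3.9e-06). H19, the noncoding neighbour of Igf2 under the same imprinting control, had 4.80, 6.14 and 20.3 scaled CPM in AdIGF1RKO and 18.3, 6.57 and 100.1 in Flox. H19 was highest in both muscle-rich libraries, and its log2 difference was -1.36 ± 0.98 (SE). It was -0.33 without Flox 3 and -2.20 without Flox 2. In each same-numbered pair the AdIGF1RKO library was the lower one, and with the replicate block limma gave an unadjusted p of 0.0196, against 0.212 without it, which did not pass adjustment. Igf2 was also lower in the AdIGF1RKO library of each same-numbered pair (unadjusted p = 0.108 by limma with the block, 0.133 without it). Its 2 highest values were in Flox 2, with 0.111% of reads from muscle markers, and Flox 3, with 13.6%. The part of muscle RNA in the H19 and Igf2 levels was not tested. Meg3, the maternally expressed noncoding RNA, averaged 59.3 ± 2.98 in AdIGF1RKO and 66.3 ± 5.87 in Flox without overlap, a log2 difference of -0.16 ± 0.10 (SE). For Meg3 and Mest the block raised the unadjusted p by limma, to 0.222 from 0.159 and to 0.00113 from 0.00048. Dcn, which encodes the matrix proteoglycan decorin, averaged 2361 ± 191 in AdIGF1RKO and 2647 ± 242 in Flox.

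Genes whose profile over the 6 libraries lay nearest to that of a ligand were found by the root mean square distance of centred log2 levels. Nearest to Igf1 were Nsd2 at 0.013, Met at 0.052 and Zeb2 at 0.083, where the median gene lay at 0.31. Nearest to Igf2 were Fa2h at 0.036, Kbtbd3 at 0.053 and Mettl8 at 0.057, with a median of 0.25. Zeb2, a transcription factor gene, had 74.7, 108 and 106 scaled CPM in AdIGF1RKO and 70.2, 82.5 and 67.3 in Flox. The points are the same 6 libraries for every gene, and near profiles are to be had among 12993 genes in so few of them. Reads of antisense partners cannot be told apart from those of the ligands where strand was not used in counting, which is not known here. Igf1os had 0.943% to 2.65% as many reads as Igf1, and Igf2os 0.135% to 0.396% as many as Igf2. Of the other 7 genes of the family, Igfbp7 was nearest to Igf2 at 0.16 and Igfbp4 to Igf1 at 0.32.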

How the data were processed

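Polyadenylated RNA was sequenced as stranded libraries, per the labels' protocols, and the submitters' processing notes name the build GRCm39; no source used here names the aligner, counting tool, strand setting or annotation. The authors deposited 1 table whose values are a signal: 100% of them, within a rounding tolerance of 0.5, were whole reads times 1000000000 over a single divisor per library, not divided by gene length. Reads were recovered and scaled by median-ratio factors (0.731 to 1.17). A single read is worth 0.013 to 0.021 scaled CPM. No entry was below 1 read.

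Genes with a mean of at least 1 scaled CPM were tested with limma 3.58.1 (R 4.3.3) with an intensity trend on log2(value + 1), which understates changes of low genes. Tests were two-sided with Benjamini-Hochberg adjustment over 12993 genes and a threshold of 0.05. edgeR 4.0.16 (quasi-likelihood, called 0 genes) and DESeq2 1.42.0 (called 23) were run on the recovered reads as alternatives. Scripts were tested on simulated data. Exon lengths came from the GENCODE M21 basic annotation, an earlier build, so levels per kilobase are approximate.

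The genes, lists and tests were chosen with earlier results of these data known. Named genes were the 8, Igf1r, in each pathway list up to 4 with the smallest unadjusted p, and 3 nearest profiles per ligand; Pappa and the antisense partners were added after their values were seen. Both groups use replicate numbers 1 to 3. Across genes, same-numbered libraries deviated together from their group means (r = 0.35, 0.35 and 0.83, every r above 0.1), which meets the rule for pairing. However, the labels do not say what the numbers mark. AdIGF1RKO 1 followed Flox 2 more closely (r = 0.70), and AdIGF1RKO 2 followed Flox 1 (r = 0.33) almost as closely as Flox 2. The pair numbered 3, with the highest r, holds both muscle-rich libraries. The values printed come from the fit without the replicate block unless a sentence names it.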

Additional observations from a re-analysis of the deposited data

How the results depend on the processing

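Over 21 alternatives for each of the 8 genes, 159 of 168 log2 differences kept their direction, and none passed adjustment. Those that turned were, with equal sums, Igf2r (0.0036), Igfbp3 (0.00067), Igfbp6 (0.0088) and Igfbp7 (0.027), as deposited Igfbp4 (-0.020) and Igfbp5 (-0.10), and without both muscle-rich libraries Igf2r (0.056). Equal sums and values as deposited move all genes together, their medians to 0.09 and -0.17, and the 6 values that turned there stayed on the same side of that median. Leaving out 1 library gave -0.30 to 0.23 for Igfbp3 (turned without Flox 2), -0.094 to 0.27 for Igfbp5 (turned without Flox 2), -0.34 to 0.13 for Kazald1 and -0.61 to 0.032 for Stat5b (both turned without Flox 3). Htra1 was -0.055 as deposited, and Kazald1 was 0.16 without both muscle-rich libraries and 0.066 with array weights. The number of genes called was 23 with DESeq2 and 0 to 1 on leaving out 1 library. The replicate block called 0 genes (582 against 385 at an unadjusted p under 0.05) and changed no call. It lowered the unadjusted p of some named genes, such as Igfals and H19, and raised that of others, such as Stat5a, Mest and Meg3. For the ligand ratio an exact permutation within pairs gave p = 0.5, where 3 pairs allow no p below 0.25. The cause of these changes was not tested. The 95% interval of each of the 8 genes gives the changes that these data leave possible, without adjustment, and is not a limit of detection. With 3 libraries a group, larger changes could also fail adjustment, as Mest did by limma at a log2 difference of 1.70 (adjusted p = 0.998).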
